A study of Mus musculus with 15 samples.

Results

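The amino acid breakdown enzymes of the mouse liver were followed across 3 diets as a set of 44 genes, given by name and grouped by the amino acid each acts on. All 44 were found among the 56980 gene IDs of the count table, and all 44 passed the filter on low counts and stood among the 14627 genes tested. The set holds 5 enzymes of tyrosine breakdown, 7 of tryptophan, 4 of serine and glycine, 3 of proline, 4 of histidine, 9 of the branched-chain amino acids, 1 of lysine, 4 aminotransferases, 3 of methionine and 4 that take its sulfur on to cysteine and taurine. Their values had no part in how the genes were put together, but the set was drawn up with earlier results of these data known.

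RNA was measured in livers of wild-type male C57BL/6J mice that were moved at 15 weeks of age to food with 10% fat (control), 60% fat (high-fat) or 89.9% fat (ketogenic) and kept on it for 9 months. Each diet had 5 libraries, and control replicate 1, which the submitters excluded as contaminated, entered no comparison, leaving 4 control, 5 high-fat and 5 ketogenic libraries. The labels leave unstated whether every library is its own animal, so the p-values speak only to variation among these libraries, which may be technical. Every sample title also carries the letters ALF, a tag that all diets share. The tissue is whole liver, in which fewer cells of a type and less RNA per cell cannot be told apart.

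The liver is the main site where surplus amino acids are taken apart. Aminotransferases and dehydratases remove the nitrogen, which leaves the liver as urea, and the carbon skeletons enter glucose synthesis, ketone body synthesis or the citric acid cycle. Most enzymes of tyrosine, tryptophan and methionine breakdown work in the cytosol of hepatocytes, whereas the branched-chain amino acids and the glycine cleavage system are handled in the mitochondrial matrix.

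Total counts of the 14 libraries ran from 16329425 to 25349148, no library pair was identical, and the 44 genes took 1.79% to 2.21% of the counts in control libraries, 2.18% to 2.66% in high-fat libraries and 1.88% to 2.37% in ketogenic libraries. Summed over 9 hepatocyte markers, transcripts took 14.8% to 16.3% of control counts, 11.9% to 14.05% of high-fat counts and 10.4% to 13.9% of ketogenic counts. Of the hepatocyte markers, 1 fell in high-fat livers (Ahsg), or 11.1% against 5.01% of all genes. In ketogenic livers 3 fell (Ahsg, Serpina1c and Fgb), or 33.3% against 4.60%. All 9 had log2 changes below 0 on both diets. Summed over 6 stellate cell and fibroblast markers, transcripts took 0.0249% to 0.0281% of control counts, 0.0340% to 0.0493% of high-fat counts and 0.0283% to 0.0825% of ketogenic counts. Dcn and Pdgfrb were called higher on the high-fat diet, or 33.3% against 6.95% of all genes. Pdgfrb, Col1a1 and Col3a1 were called higher on the ketogenic diet, or 50% against 7.47%. Ketogenic replicate 5 stood apart from the other ketogenic libraries. It held the highest macrophage marker sum of its diet, 0.116% against 0.0262% to 0.0388% in the other 4, and the lowest value of its diet for 27 of the 44 enzymes. Its lymphocyte, endothelial, cholangiocyte, and stellate cell and fibroblast marker sums were the highest of its diet too. Its hepatocyte marker sum, 10.4%, was the lowest. High-fat replicate 1 held the highest value of its diet for 26 of the 44.

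In high-fat against control livers, 6 of the 44 enzymes rose and 1 fell at an adjusted p below 0.05 (edgeR's quasi-likelihood test, Benjamini-Hochberg adjustment over all genes tested). This is 13.6% higher and 2.27% lower, against 6.95% higher and 5.01% lower among all 14627 genes. The count of rises was 3 when any 1 of control replicates 2, 3 and 4 or high-fat replicates 2, 3 and 4 was left out, which ended the calls of Kmo, Gpt2 and Hibch. The count of falls was 0 once control replicate 5 was dropped, and it was 2 without high-fat replicate 1. The 6 were Bhmt, Amt, Mccc1, Kmo, Gpt2 and Hibch, and Acmsd was the gene that fell. The median log2 change was 0.09 over the 44 and 0.01 over all genes. Groups did not overlap for 9 of the 44, or 20.5%, against 16.2% of all genes.

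In ketogenic against control livers, 7 enzymes rose, 8 fell and 29 passed in neither direction, which is 15.9% higher against 7.47% of all genes and 18.2% lower against 4.60%. The 6 that rose on the high-fat diet rose here as well, joined by Bckdhb. The 8 that fell were Acmsd, Got1, Sds, Gnmt, Haao, Sdsl, Hgd and Cbs. The median log2 change was -0.05 over the 44 and 0.03 over all genes, and groups did not overlap for 13 of the 44, or 29.5%, against 12.5%. Both diets were set against the same 4 control libraries, so the recurrence of the 6 rises is not independent. The hepatocyte marker sums given above were lower in every library of both fat-rich diets than in every control library. Their part in the falls on either diet was not tested. Without ketogenic replicate 5, 11 enzymes rose and 9 fell, and 4 rose without control replicate 3 or 4 or ketogenic replicate 2. Among all genes, leaving out 1 library at a time gave 658 to 1295 higher and 398 to 906 lower. With only the 9 libraries numbered 13 to 25 in the labels, 3 a diet, there were 2 rises and 1 fall on the high-fat diet. On the ketogenic diet there were 3 rises and 3 falls. The rises there were Bhmt, Amt and Bcat2, and Bcat2 (0.61, adjusted p = 0.0327) was not called with all 14 libraries. Among all genes, 641 rose and 465 fell on the high-fat diet and 478 rose and 317 fell on the ketogenic diet. Library totals in place of TMM shift the median log2 change of all genes by 0.13 on the high-fat and 0.18 on the ketogenic diet. With them 13 members rose and 1 fell on the high-fat diet, beside 1302 higher and 420 lower among all genes. On the ketogenic diet 13 members rose and 8 fell, beside 1826 higher and 368 lower among all genes.

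In ketogenic against high-fat livers, which is the test of whether the diets differed from each other, none of the 44 passed with edgeR, against 0.0615% of all genes (0.00684% higher and 0.0547% lower). At an unadjusted p below 0.05 there were 11, a count for which the share of all genes was not taken. DESeq2 called 4 of the 44, all lower in ketogenic livers, beside 56 genes higher and 112 lower among all genes. The 7 enzymes called lower only on the ketogenic diet are therefore not shown by the edgeR test to differ between the fat-rich diets. Groups did not overlap for 3 of the 44 (Sds, Got1 and Mat1a), or 6.82%, against 1.76% of all genes. Without ketogenic replicate 5, Kynu (log2 change -0.65, adjusted p = 0.00653) and Got1 (-1.32, adjusted p = 0.0180) passed in edgeR.

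**Figure D1:**
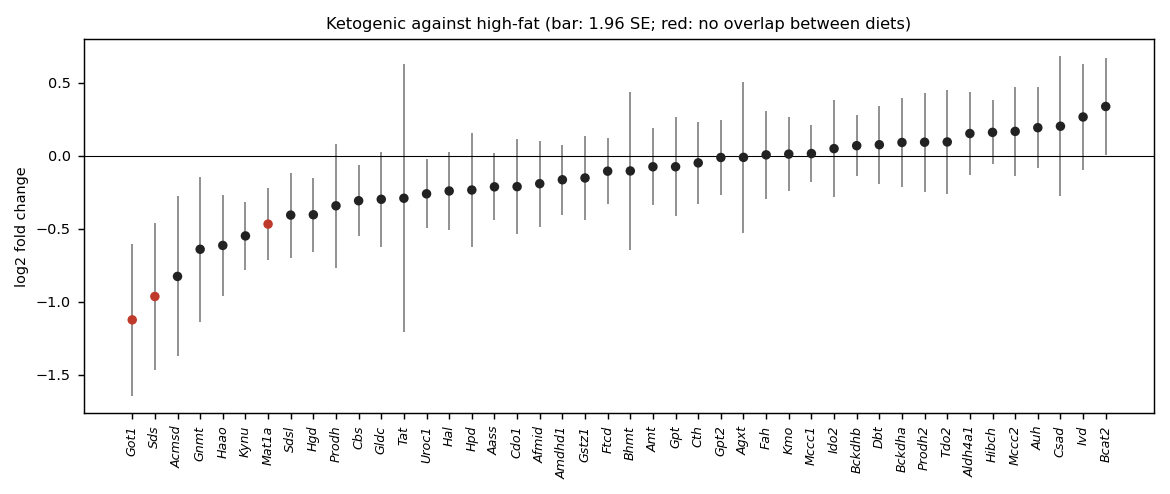
Log2 change of each of the 44 enzymes in ketogenic against high-fat livers (points), in order of size. Bars are approximate 95% intervals from the normal multiple of the SE, narrower than the edgeR test implies. Red points mark enzymes for which the diets did not overlap. Got1 (-1.12) and Sds (-0.96) stand lowest, and the enzymes run up to Bcat2 at 0.34.

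**Figure D2:**
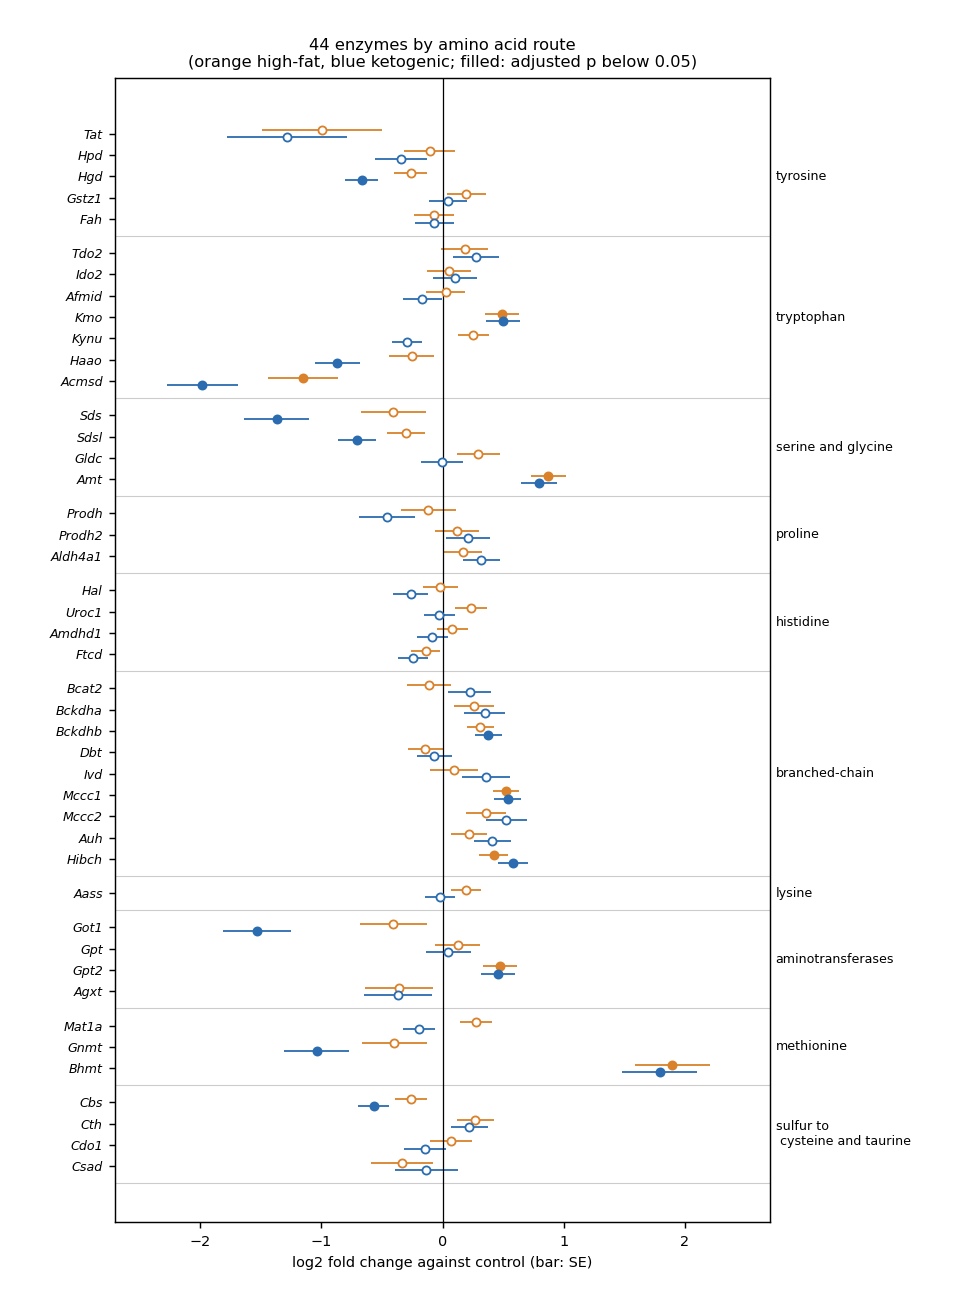
Log2 change of each of the 44 enzymes (points) with its standard error (bars) in high-fat and in ketogenic against control livers, grouped by amino acid and in log2 units. Filled points passed an adjusted p below 0.05, 7 on the high-fat and 15 on the ketogenic diet, from Acmsd at -1.98 to Bhmt at 1.90.

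Promoters are shown as examples for 3 of the enzymes whose calls held under every alternative tried on the ketogenic diet, namely Bhmt and Amt, which rose, and Got1, which fell. Each is the 250 bases before the annotated start in RefSeq (build GRCm38.p6), read 5′ to 3′ on the strand of the gene. Capitals mark the letters AGGTCA, the nuclear receptor core motif, and CCAAT, on either strand.
Bhmt (chr13:93637759-93638008, minus strand): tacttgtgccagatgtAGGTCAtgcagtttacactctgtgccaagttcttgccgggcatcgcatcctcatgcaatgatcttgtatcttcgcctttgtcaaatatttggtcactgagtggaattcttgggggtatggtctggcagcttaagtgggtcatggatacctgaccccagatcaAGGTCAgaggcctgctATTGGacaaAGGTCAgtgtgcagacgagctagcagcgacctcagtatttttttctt
Amt (chr9:108296655-108296904, plus strand): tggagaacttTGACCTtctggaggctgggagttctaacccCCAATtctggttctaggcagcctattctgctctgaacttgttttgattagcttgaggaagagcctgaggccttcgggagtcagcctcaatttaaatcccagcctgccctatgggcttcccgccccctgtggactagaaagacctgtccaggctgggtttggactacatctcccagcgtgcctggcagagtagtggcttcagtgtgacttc
Got1 (chr19:43524606-43524855, minus strand): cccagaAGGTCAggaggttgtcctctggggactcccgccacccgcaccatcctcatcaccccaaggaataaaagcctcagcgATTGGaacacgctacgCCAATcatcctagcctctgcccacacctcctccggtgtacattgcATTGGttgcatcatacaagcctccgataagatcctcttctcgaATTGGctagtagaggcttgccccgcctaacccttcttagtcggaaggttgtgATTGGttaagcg
Bhmt held AGGTCA at 3 places, 234, 72 and 47 bases before the start, where 1.36% of all promoters hold at least 2. Amt held it 240 bases and Got1 244 bases before the start. Got1 also held CCAAT at 5 places. Of the 15 enzymes that changed, 13 had a promoter in the table, and AGGTCA lay in 8 of the 13, as it did in 12 of the 35 enzymes with an entry and in 14% of all 32851 promoters. CCAAT lay in 8 of the 13, in 20 of the 35 and in 33.8% of all. The AGGTCA search was added after the sequences had been read. A match describes these letters only, and it was present in promoters of genes that rose and of genes that fell. TATAAA lay in 1 of the 13 (12.4% of all) and the glucocorticoid receptor core motif TGTTCT in 2 of the 13 (16.1% of all). None of the 13 held TGACGTCA (1.55% of all), AGGTCA repeated in the same direction after any 1 base (0.0335%), the HNF1 site searched as GTTAAT and ATTAA with any 1 base between (0.0609%) or CAAAGTCCA (0.384%).

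Among the methionine enzymes, Bhmt rose and Gnmt fell. Bhmt, which uses betaine to turn homocysteine back into methionine, measured 1726, 719, 562 and 1271 CPM (read counts brought to the same library size with TMM) in control replicates 2 to 5. It measured 3902, 4084, 3152, 5187 and 3582 in high-fat replicates 1 to 5 and 2491, 3884, 4931, 4450.3 and 2750.4 in ketogenic replicates 1 to 5. Every library of both fat-rich diets was above every control. The rise was 3.72-fold on the high-fat diet (log2 change 1.90 ± 0.31 SE, adjusted p = 0.00122) and 3.46-fold on the ketogenic diet (1.79 ± 0.31, adjusted p = 0.00134). Ketogenic and high-fat livers differed by -0.11 on the log2 scale, with an approximate 95% interval of -0.65 to 0.44.

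Gnmt, which spends surplus S-adenosylmethionine on the methylation of glycine, measured 1896, 1538, 1534 and 1796 CPM in controls, 1919, 1048, 929, 1263 and 1259.9 in high-fat and 502, 817, 1392, 865 and 538 in ketogenic livers. Every ketogenic library lay below every control, whereas high-fat replicate 1 was the highest library of all 14 and the other 4 high-fat libraries were below every control. The ketogenic change was -1.04 ± 0.27 (adjusted p = 0.0185), and it passed no longer without control replicate 5 (-1.01, adjusted p = 0.0543). The high-fat change was -0.40 ± 0.27 (adjusted p = 0.355).

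Mat1a, the liver enzyme that makes S-adenosylmethionine, measured 2756, 3041, 3319 and 3934 CPM in controls, 4458, 3937, 3507, 3914 and 3925 in high-fat and 2918, 3147, 2988, 2507 and 2699 in ketogenic livers. It passed against neither control comparison, at 0.28 (adjusted p = 0.192) and -0.19 (adjusted p = 0.358). The ketogenic values all lay under the high-fat ones, a difference of -0.47 ± 0.13 that missed the threshold in edgeR (adjusted p = 0.193) and passed it in DESeq2 (-0.47, adjusted p = 0.00651).

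Cbs, which joins homocysteine with serine on the way to cysteine, was the enzyme of the sulfur branch that changed. It measured 297, 350.2, 355 and 304 CPM in controls, 317, 262, 235, 258 and 291 in high-fat and 186, 214, 262, 249 and 189 in ketogenic livers, and fell on the ketogenic diet (-0.57 ± 0.13, adjusted p = 0.00972). Every ketogenic library was below every control. High-fat libraries overlapped the controls (-0.26 ± 0.13, adjusted p = 0.211). Cth, which releases cysteine from cystathionine, Cdo1, which oxidizes cysteine, and Csad, which makes hypotaurine from the product, passed in no comparison, with log2 changes from -0.33 to 0.27 against control.

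Tryptophan breakdown runs through kynurenine, and its enzymes moved in both directions. Kmo, the hydroxylase on the mitochondrial outer membrane that makes 3-hydroxykynurenine, measured 236, 252, 259 and 290.1 CPM in controls, 380.3, 351, 345, 425 and 321 in high-fat and 352, 403, 396, 422 and 262 in ketogenic livers. It rose on the high-fat diet (0.49 ± 0.14, adjusted p = 0.0319) with no overlap, and on the ketogenic diet (0.50 ± 0.14, adjusted p = 0.0276), where replicate 5 fell within the control range. The high-fat call was lost without control replicate 2, 3 or 4 (0.45, 0.48 and 0.49, adjusted p = 0.0753, 0.0879 and 0.0855) and without high-fat replicate 2, 3 or 4 (0.51, 0.51 and 0.43, adjusted p = 0.0512, 0.0509 and 0.0832). The ketogenic call was lost without control replicate 2, 3 or 4 (0.46, 0.48 and 0.50, adjusted p = 0.0671, 0.0818 and 0.0756) and without ketogenic replicate 2 or 4 (0.47 and 0.45, adjusted p = 0.0654 and 0.0635).

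Haao and Acmsd are successive steps further down the pathway, and both fell on the ketogenic diet. Haao, which makes the precursor of quinolinate, measured 600.3, 536, 522 and 661 CPM in controls, 683, 410.1, 383, 495 and 463 in high-fat and 239.9, 309, 422, 358 and 259.7 in ketogenic livers. The ketogenic libraries were all below the controls (-0.87 ± 0.19, adjusted p = 0.00644), and high-fat replicate 1 was again the highest of the 14 (-0.25 ± 0.19, adjusted p = 0.403).

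Acmsd decarboxylates that precursor, which draws it away from quinolinate and so from NAD synthesis. It measured 33.4, 18.6, 26.0 and 39.6 CPM in controls, 15.3, 15.9, 9.68, 13.97 and 11.2 in high-fat and 2.93, 7.58, 7.56, 8.13 and 10.9 in ketogenic livers. Both fat-rich diets lay wholly under the controls, with some overlap between them. The fall was -1.98 ± 0.29 on the ketogenic diet (adjusted p = 0.000493), 3.95-fold lower and the largest fall of the 44. On the high-fat diet it was -1.15 ± 0.29 (adjusted p = 0.0179), which no longer passed once control replicate 5 was left out (-0.98, adjusted p = 0.0611). Ketogenic and high-fat livers differed by -0.83 ± 0.28 (adjusted p = 0.345).

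Kynu, which cleaves kynurenine metabolites to release alanine, measured 115, 121, 121 and 118 CPM in controls, 133, 168, 120.0, 141 and 146 in high-fat and 82.0, 104, 92.0, 84.1 and 122 in ketogenic livers. It stood on opposite sides of the controls in the fat-rich diets, at 0.25 (adjusted p = 0.202) and -0.30 (adjusted p = 0.137). The difference between them was -0.55 ± 0.12 (adjusted p = 0.0904 in edgeR and 0.00206 in DESeq2). Only ketogenic replicate 5 reached into the high-fat range, and without it the ketogenic change against control passed too (-0.41, adjusted p = 0.0273). Tdo2, the dioxygenase that opens the pathway, its relative Ido2 and the formamidase Afmid passed in no comparison, with log2 changes from -0.17 to 0.28 against control.

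Among the 4 serine and glycine enzymes, Amt rose on both diets, and Sds and Sdsl fell on the ketogenic diet. Sds, the cytosolic dehydratase that turns serine into pyruvate, measured 151, 208, 185 and 392 CPM in controls, 257, 147, 171, 124 and 185 in high-fat and 59.8, 83.3, 115, 99.2 and 94.7 in ketogenic livers. Ketogenic values lay below all controls and all high-fat values. Sds fell by 2.58-fold on the ketogenic diet (-1.37 ± 0.27, adjusted p = 0.00397), against -0.40 ± 0.27 on the high-fat diet (adjusted p = 0.350). The difference between the fat-rich diets was -0.96 ± 0.26 (adjusted p = 0.194 in edgeR and 0.0230 in DESeq2). Of the exon bases of Sds, 21.3% overlap Plbd2 on the opposite strand, and the strand setting of the counting is not given. Plbd2 itself was at -0.07 on the ketogenic diet (adjusted p = 0.735).

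Sdsl, a relative of Sds, measured 13.5, 11.6, 12.5 and 13.6 CPM in controls, 11.2, 8.47, 9.87, 9.43 and 12.9 in high-fat and 5.43, 7.49, 9.30, 8.82 and 8.09 in ketogenic livers. It fell on the ketogenic diet with no overlap (-0.71 ± 0.16, adjusted p = 0.00770). The high-fat value, -0.30 ± 0.16, did not pass (adjusted p = 0.226).

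Amt, the aminomethyltransferase of the mitochondrial glycine cleavage system, measured 30.8, 22.7, 18.95 and 22.3 CPM in controls, 39.4, 40.1, 36.8, 47.7 and 52.8 in high-fat and 37.0, 48.1, 38.7, 42.6 and 39.2 in ketogenic livers. It rose with no overlap on the high-fat diet (0.87 ± 0.15, adjusted p = 0.00143) and on the ketogenic diet (0.80 ± 0.15, adjusted p = 0.00210). Gldc, the decarboxylase of the same system, passed on neither diet (adjusted p = 0.298 and 0.989).

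Among the branched-chain enzymes, 2 of 9 rose on the high-fat diet (22.2%, against 6.95% of all genes). On the ketogenic diet 3 of 9 rose (33.3%, against 7.47%), and none fell on either diet. Mccc1, the biotin-carrying subunit of the leucine enzyme methylcrotonyl-CoA carboxylase, measured 46.3, 49.2, 45.7 and 55.0 CPM in controls, 70.8, 67.0, 68.0, 75.3 and 71.2 in high-fat and 67.2, 75.5, 77.0, 80.1 and 56.0 in ketogenic livers. All libraries of both diets were above all controls, with ketogenic replicate 5 nearest to them. The rise was 0.52 ± 0.11 on the high-fat diet (adjusted p = 0.00571) and 0.54 ± 0.11 on the ketogenic diet (adjusted p = 0.00418).

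Hibch, which removes coenzyme A in valine breakdown, measured 53.9, 62.7, 54.1 and 61.5 CPM in controls, 81.9, 78.7, 77.0, 85.4 and 66.3 in high-fat and 76.9, 99.9, 98.7, 89.7 and 69.5 in ketogenic livers. Neither diet overlapped the controls, and the rise was 0.42 ± 0.12 on the high-fat diet (adjusted p = 0.0319) and 0.58 ± 0.12 on the ketogenic diet (adjusted p = 0.00504). The high-fat call was lost without any single control replicate 2, 3, 4 or 5 (0.39, 0.46, 0.39 and 0.45, adjusted p = 0.0731, 0.0545, 0.105 and 0.0610). It was lost too without high-fat replicate 2, 3 or 4 (0.42, 0.43 and 0.39, adjusted p = 0.0582, 0.0564 and 0.0780).

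Bckdhb, the E1 beta subunit of the branched-chain ketoacid dehydrogenase that commits all 3 amino acids to breakdown, measured 77.7, 63.6, 65.9 and 74.7 CPM in controls, 86.0, 81.8, 84.7, 90.4 and 94.5 in high-fat and 85.3, 103, 109.7, 82.0 and 78.8 in ketogenic livers. Neither diet overlapped the controls, but only the ketogenic change passed (0.38 ± 0.11, adjusted p = 0.0387, against 0.31 ± 0.11, adjusted p = 0.0837). The ketogenic call was lost without control replicate 3, 4 or 5 (0.33, 0.35 and 0.40, adjusted p = 0.131, 0.120 and 0.0772). It was lost too without ketogenic replicate 1, 2 or 3 (0.40, 0.34 and 0.31, adjusted p = 0.0539, 0.0940 and 0.0651). RLE size factors in place of TMM (adjusted p = 0.0558) and a term for library numbers (adjusted p = 0.0571) ended it as well. Of 18 alternatives, left-out libraries included, 12 lost the call.

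The other 6 branched-chain enzymes passed on neither diet. They were the aminotransferase Bcat2, the dehydrogenase subunits Bckdha and Dbt, and the leucine enzymes Ivd, Mccc2 and Auh, with ketogenic changes from -0.07 to 0.53. Mccc2, the partner subunit of Mccc1, measured 51.6, 52.1, 48.8 and 55.8 CPM in controls, 76.5, 61.4, 60.5, 72.3 and 63.7 in high-fat and 68.2, 81.8, 98.2, 81.9 and 45.2 in ketogenic livers. Ketogenic replicate 5 was the lowest library of the 14, under every control, and the other 9 libraries of the fat-rich diets were above them. Without that library Mccc2 (0.65, adjusted p = 0.00181), Auh (0.51, adjusted p = 0.0119) and Bckdha (0.45, adjusted p = 0.0436) passed on the ketogenic diet, which makes 6 of 9. It was the lowest ketogenic library for each of them. Leaving it out therefore raises their changes by construction, and the 6 of 9 is no separate support for a rise. Among all genes, calls of higher on this diet ran from 658 to 1295 as 1 library at a time was left out. The 1295 came without ketogenic replicate 3. Exons of Bckdha overlap B3gnt8 on the opposite strand for 61.7% of their bases.

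**Figure D3:**
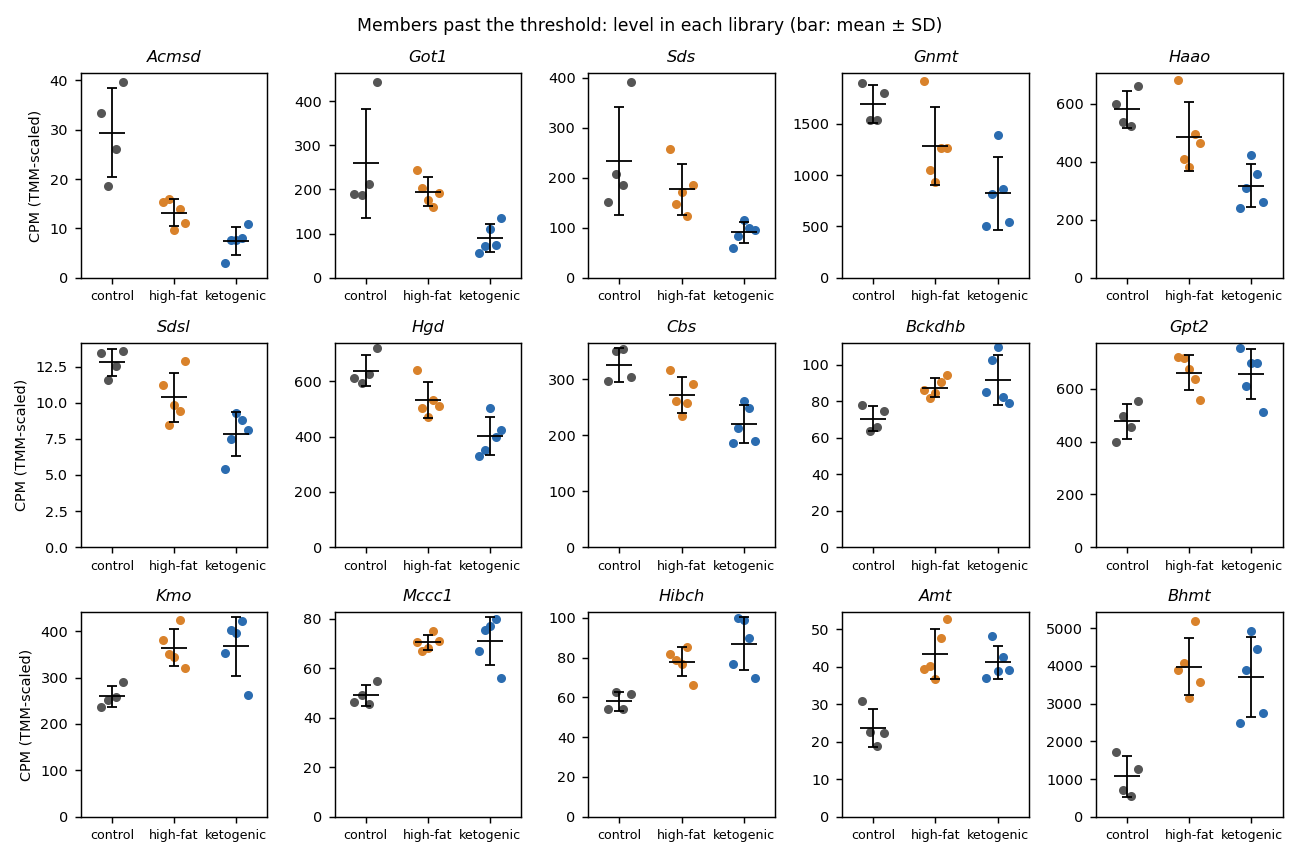
CPM in every library (points) for the 15 enzymes that changed on either diet, with the mean and SD of each diet as bars and axes that start at 0. Bhmt went from 1069 ± 533 (SD, n = 4) in controls to 3981 ± 761 and 3701 ± 1058 CPM (SD, n = 5 each). The 8 enzymes that fell had their lowest mean on the ketogenic diet, and 7 of them were not called on the high-fat diet.

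Of the aminotransferases, Got1 fell and Gpt2 rose. Got1, the cytosolic aspartate aminotransferase, measured 190.5, 188, 213 and 444 CPM in controls, 245, 202, 176, 159 and 193 in high-fat and 56.2, 72.4, 109.6, 74.4 and 134 in ketogenic livers. Control replicate 5 was far above the other controls, and the ketogenic libraries lay below all controls and all high-fat libraries. The ketogenic fall was -1.53 ± 0.28 (adjusted p = 0.00228), 2.89-fold lower, and it still passed without control replicate 5. The high-fat change was -0.41 ± 0.28 (adjusted p = 0.362). The diets differed by -1.12 ± 0.27 (adjusted p = 0.142 in edgeR and 0.00452 in DESeq2).

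Gpt2, the mitochondrial alanine aminotransferase, measured 397, 497, 456 and 555 CPM in controls, 721, 716, 674, 637 and 557 in high-fat and 756, 611, 699, 696 and 514 in ketogenic livers. The high-fat libraries were above all controls, and ketogenic replicate 5 was within the control range. The rises were 0.47 ± 0.14 (adjusted p = 0.0370) and 0.46 ± 0.14 (adjusted p = 0.0410). Of 18 alternatives, left-out libraries included, 11 lost the high-fat call and 13 the ketogenic call. RLE size factors in place of TMM ended the ketogenic call (adjusted p = 0.0521). A term for library numbers ended both (adjusted p = 0.0577 on the high-fat and 0.0634 on the ketogenic diet). The high-fat call was lost without control replicate 2, 3 or 4 (0.39, 0.49 and 0.45, adjusted p = 0.0952, 0.0758 and 0.107) and without high-fat replicate 1, 2, 3 or 4 (0.44, 0.44, 0.47 and 0.49, adjusted p = 0.0572, 0.0806, 0.0696 and 0.0645). The ketogenic call was lost without control replicate 2, 3 or 4 (0.38, 0.48 and 0.44, adjusted p = 0.102, 0.0831 and 0.113) and without ketogenic replicate 1, 2, 3 or 4 (0.40, 0.48, 0.44 and 0.44, adjusted p = 0.0982, 0.0569, 0.0572 and 0.0764). The cytosolic alanine aminotransferase Gpt (0.12 and 0.05) and the peroxisomal and mitochondrial Agxt (-0.36 and -0.37) passed on neither diet.

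In tyrosine breakdown, Hgd, the dioxygenase that opens the ring of homogentisate, was the enzyme of 5 that changed. It measured 613, 593, 627 and 720.2 CPM in controls, 641, 505, 471, 534 and 510.2 in high-fat and 331, 351, 505, 398 and 424 in ketogenic livers, with every ketogenic library below every control. Hgd fell on the ketogenic diet (-0.67 ± 0.14, adjusted p = 0.00449), against -0.26 ± 0.14 on the high-fat diet (adjusted p = 0.226). Tat, the aminotransferase that starts the pathway, measured 1257, 1455, 2041 and 3093 CPM in controls, 2123, 898, 786, 500.1 and 624 in high-fat and 526, 692, 1498, 1051 and 260.1 in ketogenic livers. Its coefficient of variation was 42.0% in controls, and at 66.2% in high-fat and 59.8% in ketogenic livers it was the highest of the 44 on those diets. Log2 changes of -0.99 ± 0.49 (adjusted p = 0.212) and -1.28 ± 0.50 (adjusted p = 0.109) did not pass. They passed without high-fat replicate 1 (-1.48, adjusted p = 0.0404) and without ketogenic replicate 3 (-1.63, adjusted p = 0.0469). Hpd, which makes homogentisate, and the last enzymes Gstz1 and Fah passed in no comparison.

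Proline, histidine and lysine breakdown held no call. Aldh4a1, the mitochondrial dehydrogenase that finishes proline breakdown, measured 286, 258, 251 and 316 CPM in controls, 363, 281, 293, 315 and 311 in high-fat and 321, 409, 421, 355 and 231 in ketogenic livers. Groups overlapped, with changes of 0.17 ± 0.16 (adjusted p = 0.512) and 0.32 ± 0.16 (adjusted p = 0.193), and ketogenic replicate 5 was the lowest of the 14. Without it the ketogenic value passed (0.42, adjusted p = 0.0350). Exons of Aldh4a1 overlap Gm21969 on the same strand for 32.5% of their bases. The proline oxidase Prodh and the hydroxyproline enzyme Prodh2 were at -0.46 and 0.21 on the ketogenic diet.

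Uroc1, the urocanase of histidine breakdown, measured 359, 482, 524 and 501 CPM in controls, 509, 544, 566, 598 and 529 in high-fat and 464, 444, 476, 527 and 379.6 in ketogenic livers, with overlap between all diets. Its changes were 0.24 ± 0.13 (adjusted p = 0.253) and -0.03 ± 0.13 (adjusted p = 0.918). Hal, which removes the amino group from histidine, Amdhd1 and the folate-linked Ftcd had changes from -0.26 to 0.08 over both diets. Aass, the bifunctional enzyme that opens lysine breakdown, measured 255, 262, 299 and 388 CPM in controls, 347, 365, 312, 355 and 339 in high-fat and 276, 307, 303, 273 and 322 in ketogenic livers. It overlapped across diets, at 0.19 ± 0.12 (adjusted p = 0.337) and -0.02 ± 0.12 (adjusted p = 0.932).

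Grouped by compartment, a grouping made from general knowledge after the values had been seen and so given as a description, the called members were mostly higher in mitochondria and mostly lower in the cytosol on the ketogenic diet. Of 17 mitochondrial enzymes, 6 rose and none fell on the ketogenic diet (median log2 change 0.36), where 7.47% of all genes rose and 4.60% fell. Of 24 cytosolic enzymes, 1 rose (Bhmt) and 7 fell (median -0.22). On the high-fat diet, where 6.95% of all genes rose and 5.01% fell, 5 of the 17 rose and none fell (median 0.26). Of the 24, 1 rose and 1 fell there (median -0.04). Sdsl, the other enzyme that fell, was placed in neither compartment. The further genes of the same pathways did not divide in this way by their calls, since on the ketogenic diet 5 rose and 2 fell (Gls2 and Slc25a44) of 32 mitochondrial ones, and 2 rose and 2 fell of 17 cytosolic ones. On the high-fat diet 5 of the 32 rose and none fell, and of the 17, 2 rose and 1 fell. Leaving out 1 library at a time gave 3 to 10 mitochondrial members higher on the ketogenic diet, with 3 without control replicate 3 or 4 or ketogenic replicate 2 and 10 without ketogenic replicate 5, and 6 to 8 cytosolic members lower. On the high-fat diet it gave 2 to 5 mitochondrial members higher, with 2 without control replicate 2, 3 or 4 or high-fat replicate 2, 3 or 4. With only the libraries numbered 13 to 25, 1 mitochondrial member rose on the high-fat diet, and 2 rose on the ketogenic diet beside 3 cytosolic falls. The 2 were Amt and Bcat2, and Bcat2 was not called when every library compared was used. Leaving out both ketogenic replicate 5 and high-fat replicate 1 was chosen after the values had been seen. The first was lowest of its diet for 27 of the 44 enzymes and the second highest of its diet for 26. Without them 11 of the 17 rose on the ketogenic diet and 8 of the 24 fell. Ketogenic calls over all genes in that setting are not reported here, so these counts have no share to stand beside. With library totals in place of TMM, 11 of the 17 rose and none fell on the ketogenic diet, and 7 of the 24 fell and 2 rose. Among all genes, 1826 rose and 368 fell with that scaling.

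**Figure D4:**
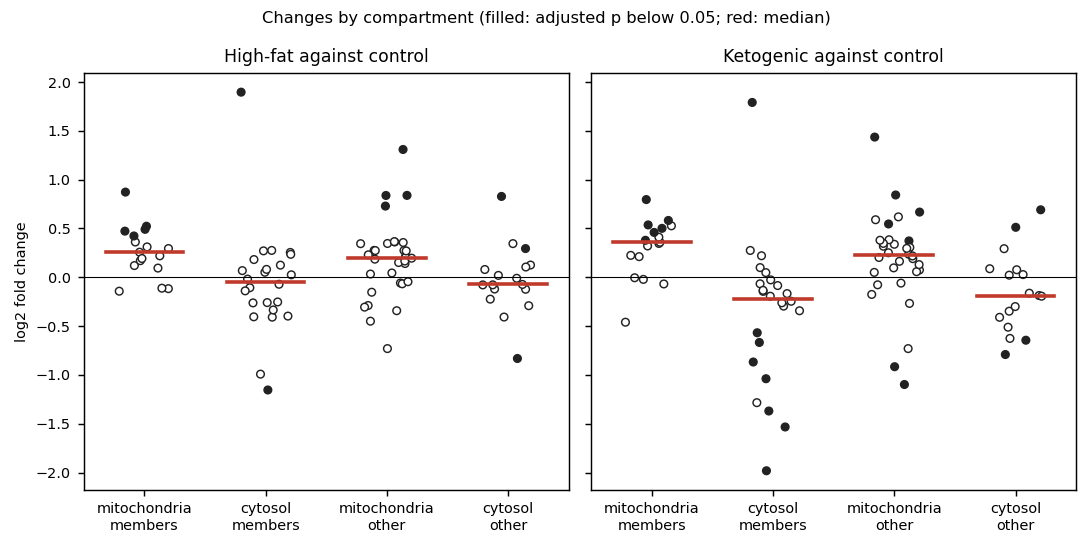
Log2 change against control of each gene (points, filled where the adjusted p was below 0.05) in high-fat and ketogenic livers, for mitochondrial and cytosolic members and other enzymes of the same pathways, with the median as a red line. Member medians were 0.26 and 0.36 for mitochondria and -0.04 and -0.22 for cytosol, and the other enzymes had medians of 0.20 and 0.23 (32 mitochondrial) and -0.07 and -0.19 (17 cytosolic).

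Of 88 further genes of amino acid metabolism, transport and control, 83 were tested. On the high-fat diet 9 rose (10.8%, against 6.95% of all genes) and 3 fell (3.61%, against 5.01%). On the ketogenic diet 9 rose (10.8%, against 7.47%) and 6 fell (7.23%, against 4.60%). Ppm1k, the phosphatase that switches on the dehydrogenase of which Bckdhb is a subunit, measured 21.4, 21.2, 19.6 and 18.5 CPM in controls, 45.4, 50.1, 58.2, 55.7 and 40.5 in high-fat and 67.6, 51.3, 49.5, 60.8 and 43.8 in ketogenic livers. It rose on both diets with no overlap (1.31 ± 0.14, adjusted p = 5.62e-05, and 1.44 ± 0.14, adjusted p = 1.96e-05). The opposing kinase Bckdk passed on neither diet, at 0.03 (adjusted p = 0.887) and 0.20 (adjusted p = 0.276).

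Of the 16 further branched-chain genes tested, 5 rose on the high-fat diet (31.2%, against 6.95% of all genes). On the ketogenic diet 3 rose (18.8%, against 7.47%) and 1 fell (6.25%, against 4.60%). Hadh, a mitochondrial hydroxyacyl-CoA dehydrogenase, rose on both (0.84 ± 0.14, adjusted p = 0.00118, and 0.84 ± 0.14, adjusted p = 0.000818). Slc25a44, the mitochondrial carrier of branched-chain amino acids, fell on the ketogenic diet (-0.92 ± 0.15, adjusted p = 0.000812). Qdpr, which regenerates tetrahydrobiopterin, fell on the ketogenic diet (-0.79 ± 0.16, adjusted p = 0.00458). Gls2, the liver glutaminase, fell there as well (-1.10 ± 0.16, adjusted p = 0.000434). Downstream of Cbs, the sulfite oxidase Suox (0.84 and 0.67), the hypotaurine oxidase Fmo1 (0.46 and 0.50) and the glutathione synthesis enzyme Gclc (0.83 and 0.69) rose on both diets. In tryptophan breakdown Kyat1, an aminotransferase of kynurenine, fell on the high-fat diet (-0.83, adjusted p = 0.0376). Dld, the shared E3 subunit of the glycine and branched-chain complexes (0.37, adjusted p = 0.0262), Dhtkd1 of lysine breakdown (0.55, adjusted p = 0.0314) and Mat2a, the S-adenosylmethionine synthetase found outside the liver as well (0.51, adjusted p = 0.0166), rose on the ketogenic diet. Mat2b, a regulatory partner of Mat2a, rose on the high-fat diet (0.29, adjusted p = 0.0443). Aldh1l1, a folate enzyme downstream of Ftcd, passed on neither diet (-0.12 and -0.51, adjusted p = 0.722 and 0.0839).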

How the data were processed

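Poly(A) RNA was made into stranded libraries, per the labels' protocols. The authors deposited whole-number read counts per gene. Build GRCm39 and the tools STAR 2.7.9a, featureCounts 1.6, cutadapt 1.16 and DESeq2 1.36.0 are listed, without roles, per the submitters' processing notes. Annotation release, strand setting and treatment of multi-mapping reads were not given in the sources used here, which leaves overlapping genes uncertain. A GENCODE M21 table named 91.39% of IDs.

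Genes with low counts were removed (filterByExpr with a minimum of 10 in a library and 15 in total). TMM factors ran from 0.886 to 1.22. A single edgeR 4.0.16 model in R 4.3.3 covered all 3 diets (robust glmQLFit, two-sided glmQLFTest, Benjamini-Hochberg, threshold 0.05). The biological coefficient of variation was 0.25. SE is the log2 change divided by the square root of F. CPM are TMM-scaled, listed in replicate order. The test was tried on simulated data. DESeq2 1.42.0, other scalings, filters, designs and left-out libraries were alternatives.

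Members and lists were chosen with earlier results of these data known. Every called member, the most abundant member of each group without a call, and up to 3 called genes of each further list were to be named, and marker genes are named in part. Compartments were assigned by hand. The promoters are RefSeq's. They are on GRCm38.p6, not the files' build, and were matched by symbol. Some genes and sequences that the rule names are not reported here.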

Additional observations from a re-analysis of the deposited data

Results flagged for a closer look

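Of 132 member-and-diet groups, 5 held a library whose gap to the others was wide for the range of its diet, where chance flags about 1 in 20. High-fat replicate 1 was high for Tat (2123 CPM, the others 500.1 to 898) and for Prodh (463, the others 218 to 287). Control replicate 5 was high for Hpd (2212 CPM, the others 1777 to 1832) and for Got1 (444, the others 188 to 213). Control replicate 3 was low for Gldc (113 CPM, the others 158 to 163). In the excluded control replicate 1, which enters no comparison, 12 pancreatic acinar markers took 1.64% of the counts, against 0.00251% to 0.174% in the 4 controls.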

How the results depend on the processing

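No called change of a member reversed direction under any alternative. Changes that were not called, some of them near 0, are not covered by this. The calls of Bhmt and Amt on both diets and of Acmsd, Sds and Got1 on the ketogenic diet held in all 18 alternatives. Gpt2 was lost in 11 of them on the high-fat and 13 on the ketogenic diet, and Bckdhb in 12 on the ketogenic diet. Hibch was lost in 10 on the high-fat diet and Kmo in 9 on each diet. Replicates that share a number are not stated to share anything else. Over 13 same-numbered pairs r ran from -0.404 to 0.418, and 3 of 14 libraries correlated best with their own number. With the replicate number as a block, 3 members rose and 0 fell on the high-fat diet and 4 rose on the ketogenic diet, and ketogenic against high-fat gave 3 higher genes overall.

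For high-fat against control, members higher were 13 with library totals, 3 with no filter and 2 with only libraries 13 to 25, and members lower were 3 without both ketogenic replicate 5 and high-fat replicate 1. All genes higher were 641 with libraries 13 to 25 and 1870 without both libraries, against 1016. All genes lower were 420 with library totals, 1105 with DESeq2, 1105 with only the diets compared, 465 with libraries 13 to 25 and 1369 without both, against 733.

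For ketogenic against control, members higher were 13 with library totals, 4 with no filter, 4 with only the diets compared, 3 with libraries 13 to 25 and 12 without both, and members lower were 3 with libraries 13 to 25. All genes higher were 1826 with library totals and 478 with libraries 13 to 25, against 1093. All genes lower were 368 with library totals, 1028 with DESeq2 and 317 with libraries 13 to 25, against 673.

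For ketogenic against high-fat, members lower were 4 with DESeq2 and 2 without both. All genes higher were 4 with library totals, 56 with DESeq2, 5 with no filter, 0 with only the diets compared, 0 with libraries 13 to 25 and 278 without both, against 1. All genes lower were 112, 21, 1, 0 and 358 with DESeq2, no filter, only the diets compared, libraries 13 to 25 and without both, against 8.

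Leaving out 1 library at a time gave 3 to 6 members higher and 0 to 2 lower on the high-fat diet (all genes 591 to 1187 and 343 to 958), and 4 to 11 higher and 7 to 9 lower on the ketogenic diet (658 to 1295 and 398 to 906). Between the fat-rich diets it gave 0 higher and 0 to 2 lower (0 to 135 and 1 to 180). Leaving out the 2 libraries together was chosen after seeing the data. Library totals shifted the median of all genes by 0.13 on the high-fat and 0.18 on the ketogenic diet. The causes of these changes were not tested.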

Other observations

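Of 12 hepatic amino acid transporters, 2 fell on the high-fat diet, or 16.7% against 5.01% of all genes. They were Slc38a2, a sodium-coupled carrier of neutral amino acids (-0.71 ± 0.21, adjusted p = 0.0382), and Slc43a1, a carrier of large neutral amino acids (-1.14 ± 0.33, adjusted p = 0.0358). Slc38a2 fell on the ketogenic diet as well (-0.77 ± 0.21, adjusted p = 0.0262). Of 13 regulators, none passed on the high-fat diet, and Cebpa, a hepatocyte transcription factor, fell on the ketogenic diet (-0.38 ± 0.12, adjusted p = 0.0438). That is 7.69% lower, against 4.60% of all genes.

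The spread of the 44 enzymes within a diet differed, with a median coefficient of variation of 10.5% in controls, 13.8% in high-fat and 22.2% in ketogenic livers. In the excluded control library, 25 of the 44 enzymes lay within the range of the 4 controls, 4 above it and 15 below it.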
